A study of Mus musculus with 16 samples.

Results

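The insulin and insulin-like growth factor (IGF) genes of the developing mouse adrenal gland were taken as a fixed set of 10: the ligand Igf1, the receptors Igf1r, Igf2r and Insr, the adaptors Irs1 and Irs2, and the binding proteins Igfbp2, Igfbp3, Igfbp4 and Igfbp5. They were taken by gene symbol, with earlier results of these data known, and are 10 of the 18193 genes that the array's annotation named. They were carried by 27 probe sets, and the brightest probe set of each gene stood for it. All 10 genes lay above the filter on dim probe sets. Of the 27 probe sets, 25 lay above it, and the other 2 belong to Insr.

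Whole adrenal glands were profiled on 16 Affymetrix Mouse430_2 arrays, 4 per group. The groups were Dicer knockout (KO) at embryonic day E15.5, control at E15.5, KO at E16.5 and control at E16.5. KO embryos were Sf1-Cre/Dicer lox/lox: the Cre is driven by regulatory sequence of Sf1 (Nr5a1), a gene of the steroid-making cells of the cortex. The arrays read whole glands and do not show which cells lost Dicer. Controls were littermates without the Cre transgene, which the labels call WT. The parents carried floxed Dicer, so a control can carry floxed alleles too; the labels do not say how many did. All were on a C57BL/6 background. Glands of 1 genotype were pooled within a litter, 4 litters were used per stage, and each pool went on 1 array, so the spread between arrays holds the variation between litters. A KO and a WT pool can thus share a litter, but the labels do not say which arrays do. The groups were compared as unpaired, and the intervals below hold that variation.

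IGFs bind the receptor tyrosine kinase encoded by Igf1r, and insulin binds that encoded by Insr. Both receptors phosphorylate the adaptors Irs1 and Irs2, which recruit PI3-kinase and lead to Akt and mTOR. Igf2r takes Igf2 up for breakdown and does not signal through a kinase, and the binding proteins hold IGFs outside the cell until proteases such as Pappa release them. In mice, Insr and Igf1r together are needed for the adrenal gland to form.

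Dicer cuts microRNA precursors into mature microRNAs. Transcripts of Igf1r, Insr, Irs2 and the Igf2bp genes have been reported as targets of let-7 microRNAs in human and mouse cells, and 4 members of that family are shown for this reason, with the seed (bases 2 to 8) in capitals. They are RefSeq sequences with positions on GRCm38.p6. The array did not measure mature microRNAs.
mmu-let-7a-5p (Mirlet7a-1, chr13:48538239-48538260, minus strand): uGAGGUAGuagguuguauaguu
mmu-let-7b-5p (Mirlet7b, chr15:85707325-85707346, plus strand): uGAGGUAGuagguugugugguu
mmu-let-7g-5p (Mirlet7g, chr9:106178846-106178867, plus strand): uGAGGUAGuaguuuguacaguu
mmu-miR-98-5p (Mir98, chrX:151913229-151913250, plus strand): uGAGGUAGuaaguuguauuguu
The seed GAGGUAG is shared by 11 of the 1679 mature microRNAs in the RefSeq table. These 4 differ from each other only outside it.

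The signal is on the log2 scale, where a doubling adds 1, and the signal of different genes cannot be set against each other because each is read by its own probes. The array-wide mean lay between 6.35 and 6.37 in KO glands and between 6.31 and 6.32 in WT glands. Dicer1 itself read 8.24, 8.36, 8.0 and 8.34 in KO against 8.50, 8.63, 8.64 and 8.58 in WT glands at E15.5, and 8.42, 8.30, 8.22 and 8.09 in KO against 8.45, 8.83, 8.60 and 8.59 in WT glands at E16.5. Every KO value lay below every WT value of its stage. The steroidogenic marker Star, which moves cholesterol into mitochondria, read 13.15 to 13.80 in KO and 13.12 to 13.86 in WT glands, so the tissue carried its defining transcript. Here a marker fell or rose when its adjusted p was under 0.05 (limma, KO against WT). Of all 13644 genes tested, 503 rose and 297 fell at E15.5, and 954 rose and 485 fell at E16.5. Of the 8 markers of the steroidogenic cortex, of which Star is 1, 3 fell at E15.5 and 5 at E16.5. At E15.5 they were Cyp11b2 (-1.82), Cyp11b1 (-0.94) and Hsd3b1 (-0.32). At E16.5 they were Cyp11b2 (-2.93), Cyp11b1 (-1.58), Cyp21a1 (-1.09), Mc2r (-0.77) and Hsd3b1 (-0.40). Of the 8 cortex markers, 2 were above 0 at both stages without passing: Nr5a1 (0.56 and 0.19) and Star (0.19 and 0.003). Of 10 macrophage markers, 5 rose at E15.5 and 10 at E16.5, with array means of 8.33 to 8.93 in KO and 7.70 to 8.01 in WT glands at E15.5, and 9.24 to 9.76 in KO and 7.97 to 8.66 in WT glands at E16.5. Among the 10 capsule and mesenchyme markers 0 passed at either stage with limma, and 0 had an unadjusted p under 0.05. Of these 10, 7 were above 0 at E15.5 and 10 at E16.5, with median differences of 0.06 and 0.22. Over all genes the medians were 0.07 and 0.08, and 64.2% and 64.3% lay above 0. Of 7 endothelial markers 0 passed at either stage, and all 7 were above 0 at both. Their medians were 0.18 and 0.28, with 0 at an unadjusted p under 0.05 at E15.5 and 2 at E16.5 (24% of all genes). Of 6 chromaffin markers, 0 passed at E15.5 and 3 rose at E16.5, with array means of 11.14 to 11.48 in KO and 10.63 to 11.13 in WT glands at E15.5, and 11.44 to 11.78 in KO and 10.62 to 11.28 in WT glands at E16.5. Of 3 Schwann lineage markers, 1 rose at E16.5 (Erbb3, 0.50, adjusted p = 0.0414). The part of these shifts in the values below was not tested, and in whole glands fewer cells of a type and less RNA per cell cannot be told apart. A pair of WT arrays at E16.5 stood apart. In replicate 1, Nr6a1, a transcript that read 8.92 to 9.31 in every KO array, was at 7.75 against 5.57 to 5.87 in the other 7 WT arrays. In replicate 2 the 3′ minus 5′ signal of the control transcripts came to 2.82, with 0.70 to 1.81 for all 15 others.

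The comparison of KO with WT glands asks whether loss of Dicer in Sf1 cells alters these 10 transcripts. At E15.5, Igf1r, Irs2 and Igfbp2 were higher in KO glands at an unadjusted p under 0.05, by 1.34-fold, 1.36-fold and 1.46-fold, and 0 of the 10 genes passed an adjusted p of 0.05 (limma, Benjamini-Hochberg adjustment over all 13644 genes tested). Among all genes tested, 5.86% passed at E15.5, 19% had an unadjusted p under 0.05, and 12.8% had one and were higher in KO glands. At E16.5, 0 of the 10 passed, against 10.5% of all genes, and 0 had an unadjusted p under 0.05, against 24% of all genes. The log2 difference was above 0 for 6 of the 10 at E15.5 and 8 of the 10 at E16.5, where 64.2% and 64.3% of all genes were above 0. The median difference of the 10 was 0.06 at E15.5 and 0.20 at E16.5, beside 0.07 and 0.08 over all genes. Centring each array on its 75th percentile moved the median of all genes to -0.01 at both stages and that of the 10 to -0.01 at E15.5 and 0.12 at E16.5.

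**Figure D1:**
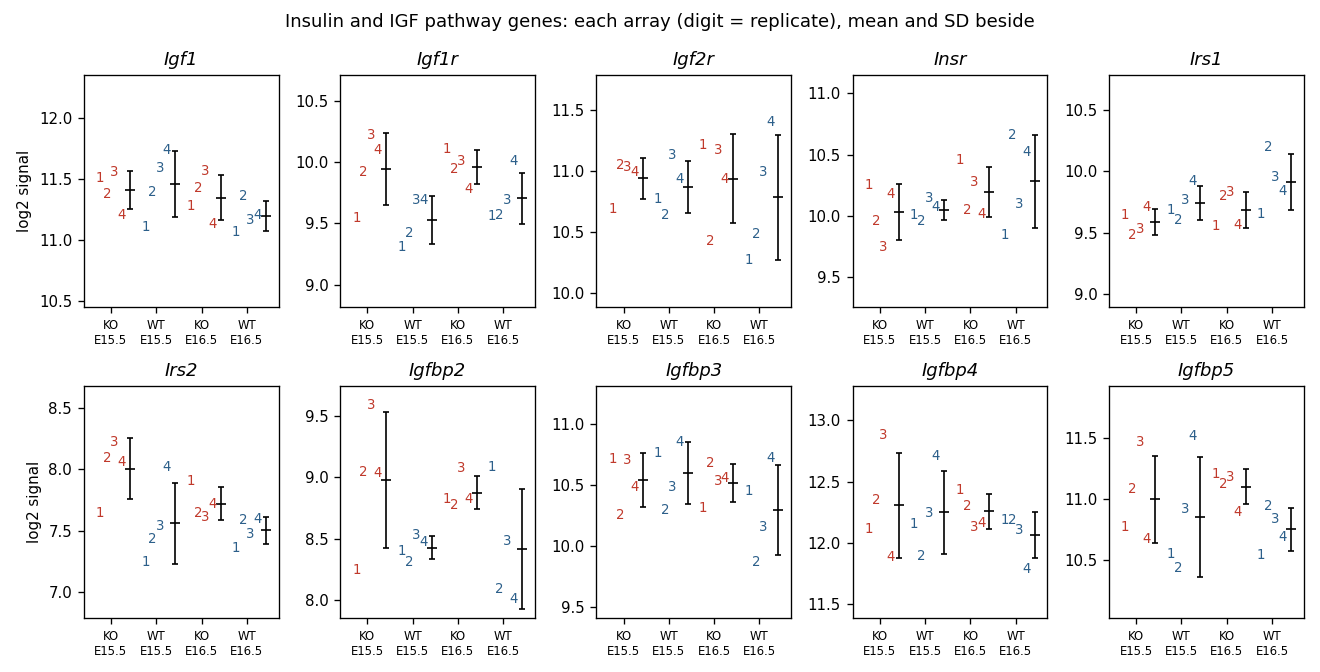
Log2 signal of the 10 insulin and IGF genes on each array (y axis), by genotype and stage (x axis); the numbers are replicate numbers, and the bars beside them give the mean and SD of 4 arrays. KO and WT values overlap in every panel at E15.5, and at E16.5 they do not overlap for Irs2.

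Igf1, the ligand made by mesenchyme and by other cells of the gland, read 11.50, 11.38, 11.56 and 11.21 in KO glands at E15.5, against 11.11, 11.40, 11.59 and 11.74 in WT glands. The WT values reached both below and above the KO values, and the difference of -0.05 (95% interval -0.33 to 0.24, adjusted p = 0.908) was smaller than the spread within either group. At E16.5 Igf1 read 11.28, 11.42, 11.56 and 11.13 in KO against 11.06, 11.36, 11.16 and 11.21 in WT glands, and the difference was 0.15 (95% interval -0.14 to 0.44, adjusted p = 0.559). Both intervals of this brightest probe set leave out a doubling or a halving.

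Igf1 was read by 3 further probe sets, and 0 of them passed. A dimmer set read 8.96, 8.98, 9.04 and 9.08 in KO against 8.72, 9.48, 9.63 and 9.63 in WT glands at E15.5, and 9.11, 9.14, 9.79 and 9.66 in KO against 8.74, 9.06, 9.33 and 8.83 in WT glands at E16.5. It differed by -0.35 at E15.5 (adjusted p = 0.427) and 0.43 at E16.5 (adjusted p = 0.243). Its KO effect at E16.5 minus that at E15.5 was 0.78 (95% interval 0.17 to 1.40, unadjusted p = 0.0162, adjusted p = 1, limma). A second set differed by -0.32 and 0.36, with a stage difference of 0.68 (95% interval 0.06 to 1.30, unadjusted p = 0.0337, adjusted p = 1), and the last set by 0.09 and 0.27. Among the 4 Igf1 sets the difference was thus -0.35 to 0.09 at E15.5 and 0.15 to 0.43 at E16.5. The stage difference was 0.20 for the brightest set and 0.17 for the last set (unadjusted p = 0.325 and 0.413, limma). Over all genes, 1.89% had an unadjusted p under 0.05 for the stage difference.

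Among the receptors, Igf1r had the highest KO difference. It read 9.55, 9.92, 10.22 and 10.10 in KO glands at E15.5, against 9.31, 9.42, 9.69 and 9.69 in WT glands. Of the KO arrays, 3 lay above every WT array, and replicate 1 lay between the WT values. The means were 9.95 ± 0.29 in KO and 9.53 ± 0.20 in WT glands (SD, n = 4 each), a difference of 0.42 (SE 0.15, 95% interval 0.10 to 0.73) that did not pass (adjusted p = 0.12, limma). At E16.5 Igf1r read 10.11, 9.94, 10.01 and 9.78 in KO against 9.56, 9.57, 9.69 and 10.01 in WT glands, and the difference was 0.26 (95% interval -0.06 to 0.57, adjusted p = 0.319). The highest WT array at this stage, replicate 4, lay above KO replicates 2 and 4.

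Igf1r was read by 4 further probe sets. One of them, a dim set, read 6.10, 6.07, 5.93 and 5.92 in KO glands at E16.5, against 5.33, 5.96, 5.54 and 5.41 in WT glands. The difference of 0.44 passed in the fit over 28481 probe sets (SE 0.13, adjusted p = 0.0459, limma), in which 7.69% of probe sets passed at E16.5. This call was lost in 13 of 16 fits that left out 1 array, with quantile normalization (adjusted p = 0.0657) and with the 75th percentile as centre (0.18). At E15.5 it differed by 0.37 (adjusted p = 0.129), where 4.92% of probe sets passed. Of the 15 further probe sets of the 10 genes, this was the only one to pass at either stage. Another dim Igf1r set differed by 0.01 at E15.5 and -0.07 at E16.5. The brighter further Igf1r sets differed by 0.37 and 0.23 at E15.5 and by 0.28 and 0.25 at E16.5.

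Insr, the insulin receptor, read 10.25, 9.96, 9.74 and 10.18 in KO glands at E15.5, against 10.01, 9.95, 10.15 and 10.07 in WT glands. The KO values surrounded the WT values, and the difference was -0.01 (95% interval -0.36 to 0.34, adjusted p = 0.98). At E16.5 Insr read 10.45, 10.04, 10.27 and 10.02 in KO against 9.85, 10.66, 10.09 and 10.52 in WT glands, and here the WT values surrounded the KO values (difference -0.08, 95% interval -0.44 to 0.27, adjusted p = 0.82).

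Igf2r, the scavenger receptor for Igf2, read 10.69, 11.05, 11.03 and 10.99 in KO against 10.77, 10.64, 11.13 and 10.93 in WT glands at E15.5, and 11.21, 10.43, 11.17 and 10.93 in KO against 10.27, 10.48, 10.99 and 11.40 in WT glands at E16.5. The groups overlapped at both stages, and the differences were 0.07 (95% interval -0.39 to 0.54) and 0.15 (-0.31 to 0.62). Without the pair of WT arrays at E16.5 that stood apart, a step added after the data were seen, the later difference was -0.26 (adjusted p = 0.5). A further probe set, annotated to both Igf2r and Airn, lay below the filter at 4.38 to 5.14 and was not used.

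Of the adaptors, Irs2 read 7.65, 8.09, 8.22 and 8.06 in KO glands at E15.5, against 7.24, 7.43, 7.54 and 8.02 in WT glands. The difference was 0.45 (SE 0.15, 95% interval 0.12 to 0.77, adjusted p = 0.107, limma), with KO replicate 1 among the WT values and WT replicate 4 among the KO values. At E16.5 Irs2 read 7.91, 7.64, 7.61 and 7.72 in KO against 7.36, 7.59, 7.47 and 7.59 in WT glands. Every KO value lay above every WT value, which held for 1 of the 10 genes at this stage and for 0 at E15.5; over all genes it held for 10.4% at E16.5 and 9.8% at E15.5. The difference was 0.22 (95% interval -0.11 to 0.54, adjusted p = 0.432).

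Irs1 read 9.65, 9.48, 9.52 and 9.71 in KO against 9.68, 9.60, 9.77 and 9.92 in WT glands at E15.5, and 9.55, 9.80, 9.83 and 9.56 in KO against 9.65, 10.20, 9.95 and 9.84 in WT glands at E16.5. Most KO values lay in the lower part of the range, with overlap at both stages. The differences were -0.16 (95% interval -0.41 to 0.10, adjusted p = 0.553) and -0.23 (-0.48 to 0.03, adjusted p = 0.269), so that neither reached past a halving of the signal in its interval.

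**Figure D2:**
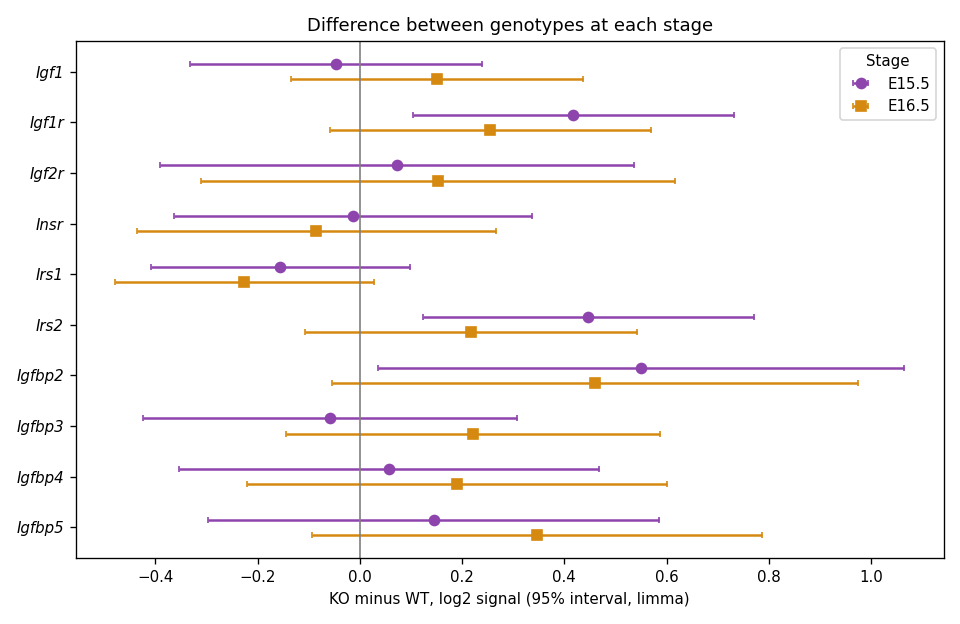
KO minus WT difference in log2 signal (x axis) of the 10 insulin and IGF genes (y axis) at E15.5 and E16.5, with 95% intervals from limma. The intervals of Igf1r, Irs2 and Igfbp2 at E15.5 lie above 0, and the other intervals hold 0.

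Of the binding proteins, Igfbp2 had the largest difference and the widest spread. It read 8.24, 9.05, 9.59 and 9.03 in KO glands at E15.5, against 8.40, 8.31, 8.53 and 8.47 in WT glands. Of the KO values, 3 lay above every WT value and replicate 1 lay below them all. The difference was 0.55 (SE 0.24, 95% interval 0.04 to 1.06, adjusted p = 0.225, limma), and its interval was the only one of the 10 at this stage to reach a doubling. At E16.5 Igfbp2 read 8.83, 8.78, 9.08 and 8.82 in KO against 9.09, 8.09, 8.48 and 8.01 in WT glands. Here WT replicate 1, an array that stood apart, had the highest value of both groups, and the other WT values lay below every KO value. The difference was 0.46 (95% interval -0.05 to 0.97, adjusted p = 0.268), and 0.63 (adjusted p = 0.154) without the pair of WT arrays that stood apart. Without that pair, Igf1r differed by 0.11 (adjusted p = 0.756) and Irs2 by 0.19 (0.608) at E16.5, and 0 of the 10 genes passed.

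Igfbp5, a binding protein that associates with the matrix, read 10.77, 11.08, 11.46 and 10.68 in KO against 10.55, 10.44, 10.92 and 11.52 in WT glands at E15.5, a difference of 0.14 (95% interval -0.30 to 0.58, adjusted p = 0.793). At E16.5 it read 11.20, 11.12, 11.18 and 10.90 in KO against 10.54, 10.95, 10.84 and 10.69 in WT glands, with overlap only between KO replicate 4 and WT replicate 2, and a difference of 0.35 (-0.09 to 0.79, adjusted p = 0.338). A further, dimmer Igfbp5 probe set differed by -0.10 at E15.5 and 0.01 at E16.5, without passing. On mouse chromosome 1, Igfbp5 and Igfbp2 are neighbouring genes in RefSeq.

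Igfbp3, the main carrier of IGFs in blood after birth, read 10.71, 10.25, 10.71 and 10.49 in KO against 10.76, 10.30, 10.48 and 10.85 in WT glands at E15.5, and 10.31, 10.68, 10.53 and 10.56 in KO against 10.45, 9.87, 10.15 and 10.72 in WT glands at E16.5. The groups overlapped at both stages, with differences of -0.06 (95% interval -0.42 to 0.31) and 0.22 (-0.15 to 0.59). The E16.5 difference ranged from 0.08 to 0.36 when 1 array was left out, and passed in 0 of 16 such fits.

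Igfbp4, a binding protein cleaved by Pappa, read 12.11, 12.35, 12.88 and 11.88 in KO against 12.16, 11.89, 12.24 and 12.71 in WT glands at E15.5, and 12.43, 12.30, 12.13 and 12.16 in KO against 12.19, 12.19, 12.10 and 11.79 in WT glands at E16.5. The differences were 0.06 (95% interval -0.35 to 0.47) and 0.19 (-0.22 to 0.60), and the groups overlapped at both stages. A p that misses the threshold does not show that these transcripts were alike in both genotypes, and the intervals give the sizes that remain possible.

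One KO array bore on the 3 genes with an unadjusted p under 0.05. KO replicate 1 at E15.5 was the lowest of its group for Igf1r, Irs2 and Igfbp2. Without it the differences were 0.55 for Igf1r (adjusted p = 0.0308), 0.57 for Irs2 (0.041) and 0.80 for Igfbp2 (0.0434, limma), and all 3 passed. In that fit 408 of the 13644 genes tested passed as higher and 258 as lower in KO glands at E15.5. The array was singled out after its values were seen, and taking out the lowest KO value raises any KO minus WT difference. Without WT replicate 4, Irs2 also passed, at 0.60 (adjusted p = 0.0162, limma). In that fit 407 genes passed as higher and 242 as lower. Over all 16 fits that left out 1 array, the difference ranged from 0.33 to 0.55 for Igf1r, 0.34 to 0.60 for Irs2 and 0.35 to 0.80 for Igfbp2.

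**Figure D3:**
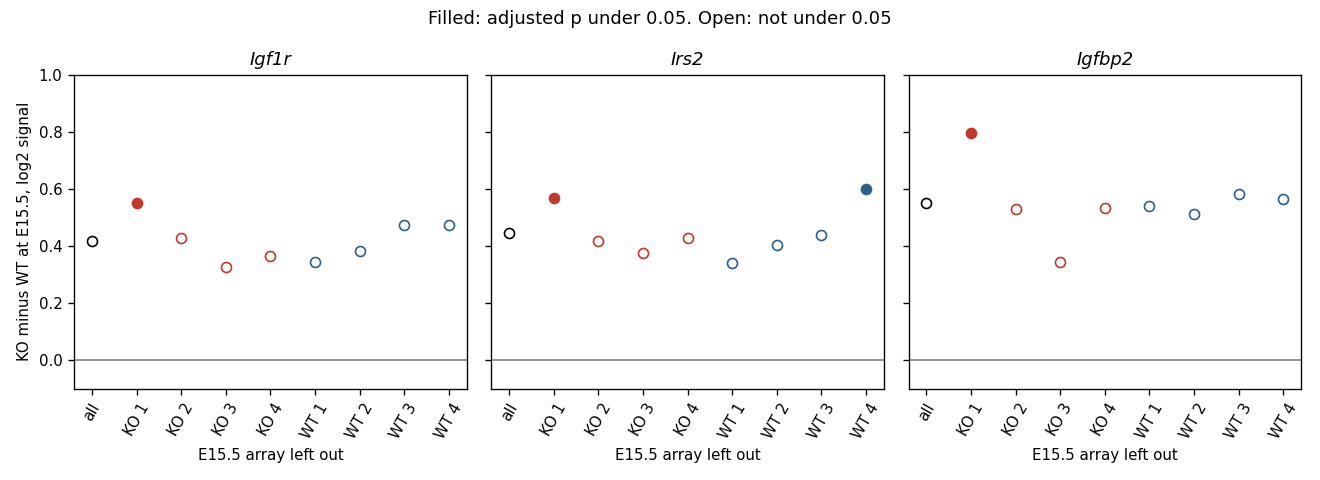
KO minus WT difference at E15.5 in log2 signal (y axis) of Igf1r, Irs2 and Igfbp2 with all arrays and with each E15.5 array left out in turn (x axis); filled points have an adjusted p under 0.05. All 3 differences pass when KO replicate 1 is left out, and that of Irs2 also when WT replicate 4 is left out.

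The effect of the KO at E16.5 minus that at E15.5 ran from -0.23 for Irs2 to 0.28 for Igfbp3. It passed for 0 of the 10 genes and 0% of all genes (limma), with 0 of the 10 and 1.89% of all genes at an unadjusted p under 0.05. Over the day from E15.5 to E16.5, 0 of the 10 passed in KO glands, against 0.901% of all genes, and 0 of the 10 in WT glands, against 0.0953%. At an unadjusted p under 0.05 there were also 0 of the 10 in either genotype, against 9.51% of all genes in KO and 7.85% in WT glands. In KO glands the E16.5 minus E15.5 difference ran from -0.29 for Irs2 (adjusted p = 0.612) to 0.16 for Insr (0.858), and in WT glands from -0.30 for Igfbp3 (0.739) to 0.24 for Insr (0.831).

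**Figure D4:**
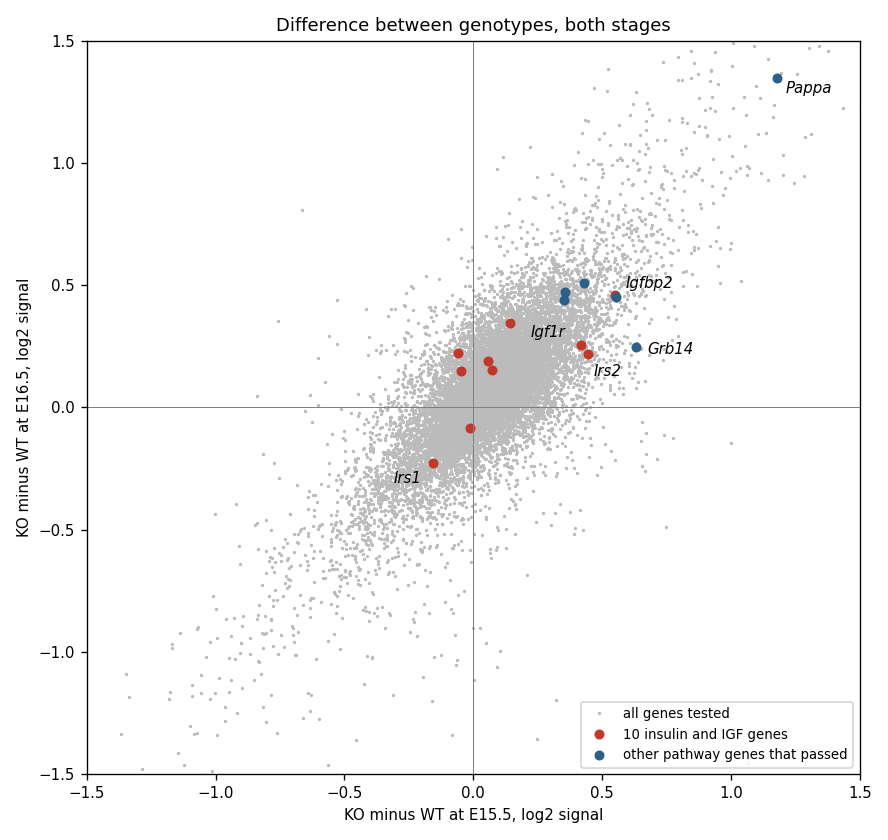
KO minus WT difference in log2 signal at E15.5 (x axis) and at E16.5 (y axis), with 1 point per gene; 98 of the genes tested lie outside the axes. The 10 insulin and IGF genes lie within the cloud of all genes, and Pappa lies far up and to the right at 1.18 and 1.35.

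Within groups, the 10 genes differed in how steady they were. The SD left after taking out group means was lowest for Irs1 at 0.162 and highest for Igfbp2 at 0.381, beside a median of 0.20 over all genes tested. The deviations of 35 of the 45 pairs of genes had a positive Pearson correlation over the 16 arrays, with a median r of 0.20. The highest was that of Igfbp4 with Igfbp5 (r = 0.85, 0.69 without the 2 arrays farthest from the median of Igfbp4), and the lowest that of Insr with Igfbp2 (r = -0.72, -0.58 without 2 arrays). These are descriptions: the points share the array, its normalization and the tissue makeup of the pool. The genes whose 16 values were most like those of Igfbp2 were Enkd1 (r = 0.91), Unc119 (0.91), Phlda3 (0.90), Lsr (0.89) and 1500011B03Rik (0.89).

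Of 54 further genes of the pathway, 46 could be tested. In KO glands 4 rose and 0 fell at E15.5 (Pappa, Grb14, Slc2a4 and Igf2bp3), and 4 rose and 0 fell at E16.5 (Pappa, Igf2bp3, Pik3cb and Stc1), with medians over the 46 of 0.07 and 0.13. Over all genes, 3.69% rose at E15.5 and 6.99% at E16.5. The ligand Igf2, an imprinted growth factor, read 12.74, 12.62, 13.32 and 12.79 in KO against 12.78, 12.38, 12.85 and 13.20 in WT glands at E15.5. Its differences were 0.07 (95% interval -0.30 to 0.44) and 0.18 (-0.19 to 0.55) and did not pass. Insrr, Irs3 and Irs4 lay below the filter, and the others were not analysed here.

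Pappa, the secreted protease that cleaves Igfbp4 and Igfbp5 and so frees IGFs, read 7.23, 6.78, 6.99 and 7.45 in KO glands at E15.5, against 5.71, 5.81, 6.14 and 6.08 in WT glands. At E16.5 it read 7.50, 7.24, 7.48 and 7.08 in KO against 5.70, 6.10, 5.92 and 6.18 in WT glands. Every KO value lay above every WT value at both stages. The differences were 1.18 (SE 0.16, adjusted p = 0.000187) and 1.35 (SE 0.16, adjusted p = 2.74e-05, limma), or 2.26-fold and 2.54-fold, and they passed in every alternative tried. A second, dimmer Pappa probe set differed by 0.25 (adjusted p = 0.52) and 0.42 (0.166) and did not pass. Stc1, an inhibitor of the Pappa protease, read 6.73, 6.73, 6.67 and 6.71 in KO glands at E16.5, against 6.35, 6.18, 6.17 and 6.39 in WT glands. Its difference of 0.44 passed (adjusted p = 0.0473) and was lost in 13 of 16 fits that left out 1 array, and without the pair of WT arrays that stood apart (0.43, adjusted p = 0.139). The Stc1 call was also lost with quantile normalization and with the 75th percentile as centre.

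**Figure D5:**
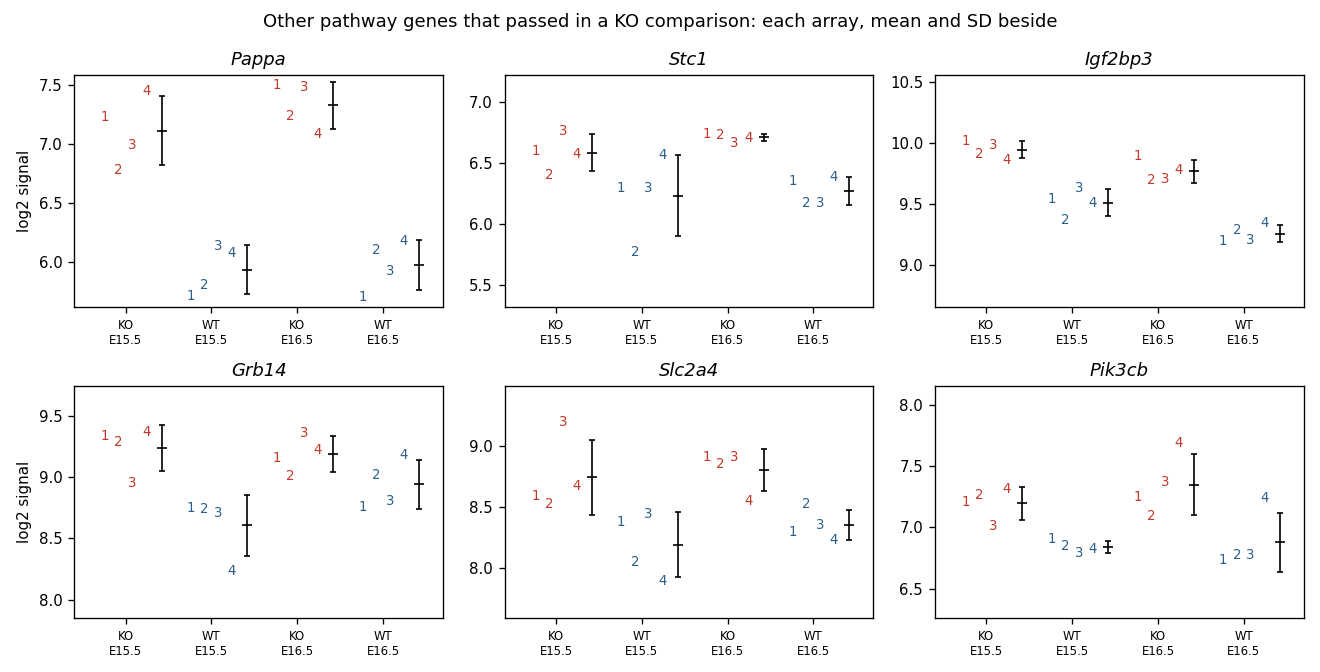
Log2 signal of the 6 other pathway genes that passed in a KO comparison, on each array (y axis), by genotype and stage (x axis); the numbers are replicate numbers, and the bars give the mean and SD of 4 arrays. The KO and WT means of Pappa differ by over 1 at both stages, and those of the other 5 genes by less. KO and WT values overlap for Stc1 at E15.5 and for Grb14 and Pik3cb at E16.5.

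Igf2bp3, an RNA-binding protein that binds Igf2 transcripts and a reported let-7 target, read 10.01, 9.91, 9.98 and 9.86 in KO glands at E15.5, against 9.54, 9.37, 9.63 and 9.51 in WT glands. At E16.5 it read 9.89, 9.70, 9.70 and 9.77 in KO against 9.20, 9.29, 9.20 and 9.35 in WT glands. The differences were 0.43 (adjusted p = 0.00509) and 0.51 (adjusted p = 0.000919, limma), with no overlap at either stage. Its probe sets disagreed: a further set differed by -0.29 at E15.5 (adjusted p = 0.167) and by -0.38 at E16.5 (adjusted p = 0.0454, limma). Another was lower without passing, by -0.19 and -0.04. The remaining sets were higher in KO glands without passing, by 0.53, 0.55 and 0.54 at E15.5 and by 0.59, 0.66 and 0.17 at E16.5. The mean of all Igf2bp3 sets differed by 0.26 (adjusted p = 0.281) and 0.25 (0.25). The direction for Igf2bp3 thus depended on the probe set.

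Grb14, an adaptor that binds and inhibits the insulin receptor, read 9.34, 9.29, 8.96 and 9.37 in KO against 8.74, 8.74, 8.71 and 8.23 in WT glands at E15.5 (difference 0.63, adjusted p = 0.0109). At E16.5 the groups overlapped, with a difference of 0.25 (adjusted p = 0.303). Slc2a4, the insulin-responsive glucose transporter, read 8.59, 8.52, 9.19 and 8.67 in KO against 8.38, 8.05, 8.45 and 7.89 in WT glands at E15.5 (difference 0.55, adjusted p = 0.0457), and differed by 0.45 at E16.5 (adjusted p = 0.0764). The E15.5 call for Slc2a4 was lost in 11 of 16 fits that left out 1 array, with quantile normalization and with the 75th percentile as centre. Pik3cb, a catalytic subunit of PI3-kinase, read 7.25, 7.10, 7.37 and 7.69 in KO against 6.73, 6.77, 6.77 and 7.24 in WT glands at E16.5 (difference 0.47, adjusted p = 0.0329), and differed by 0.36 at E15.5 (adjusted p = 0.14). Without the pair of WT arrays that stood apart, the E16.5 difference of Pik3cb was 0.34 (adjusted p = 0.215). The E16.5 call for Pik3cb held in 11 of 16 fits that left out 1 array. It was lost with quantile normalization, with the 75th percentile as centre and in the fits on 8 arrays. The difference between the stages passed for 0 of the 46 genes, with 0 at an unadjusted p under 0.05. Over the day 0 of the 46 passed, with 0 at an unadjusted p under 0.05 in KO and 3 in WT glands.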

How the data were processed

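The authors deposited log2 signals. The submitters' processing notes name RMA and limma, without versions. RMA compresses dim probe sets towards background, so changes near the floor are understated. Of 45101 probe sets, 34945 had 1 gene in the platform annotation, 932 had several and 9160 none, leaving out 64 control sets; symbols of 34741 were updated by gene identifier. The brightest probe set stood for each gene. A gene was tested when at least 4 arrays had it above their 40th percentile, which 13644 genes met and 4549 did not.

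Differences were tested two-sided with limma 3.58.1 in R 4.3.3: 1 mean per group over 16 arrays, eBayes, Benjamini-Hochberg adjustment over all genes tested, and a threshold of 0.05. Probe sets had a fit of their own. The number of arrays limits the precision, and the median SE of a KO difference was 0.139. The code was tested on simulated data. The labels give no scan date, so no batch could be examined.

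Alternatives covered quantile normalization, centring on the 75th percentile, no filter or a filter at the 60th percentile, the mean of a gene's probe sets, array weights, fits on 8 arrays, an allowance for the genotype offset, a replicate block and leaving out each array. Same-numbered KO and WT arrays had correlations of deviations from -0.39 to 0.45 over 8 pairs, so the numbers were not taken to pair them. Differently numbered arrays of a stage ran from -0.41 to 0.42. Which arrays share a litter stays unknown, and these values do not show that no arrays do.

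Named were all 10 genes, Dicer1, Igf2, up to 4 further pathway genes per direction with the largest passing KO difference, up to 3 per direction over the day, and the 5 genes most like the one with the largest mean KO difference. Igfbp1, Nr6a1, Erbb3, Star, the other named cortex markers and the single Igf1, Igf1r, Igfbp5 and Igf2bp3 probe sets were named after their values were seen. The genes, lists and tests were chosen with earlier results of these data known.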

Additional observations from a re-analysis of the deposited data

Results flagged for a closer look

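In groups of 4 arrays, a value was looked at again when its gap to the nearest other value took up most of the group's range, which chance gives in about 1 of 20 groups. Of 68 groups from 17 genes, 5 held such a value. Among the 10 insulin and IGF genes, Igf2r read 10.69 in KO E15.5 replicate 1, against 10.99 to 11.05 in the other KO arrays of that stage. Igfbp2 read 9.08 in KO E16.5 replicate 3, against 8.78 to 8.83 in the other KO arrays of that stage. Of the other pathway genes, Slc2a4 read 8.55 in KO E16.5 replicate 4, against 8.86 to 8.91 in the other 3. Grb14 read 8.23 in WT E15.5 replicate 4, against 8.71 to 8.74 in the other 3. Pik3cb read 7.24 in WT E16.5 replicate 4, against 6.73 to 6.77 in the other 3.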

How the results depend on the processing

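Of the 10 insulin and IGF genes, 0 passed at either stage with any setting other than array weights and the left-out arrays. Array weights in limma gave 2 at E15.5: Igf1r (0.44, adjusted p = 0.0459) and Irs2 (0.53, 0.0154). They gave 3 at E16.5: Irs1 (-0.23, 0.0251), Igfbp2 (0.45, 0.0187) and Igfbp3 (0.34, 0.0176). Of all 13644 genes tested, array weights passed 853 as higher and 497 as lower in KO glands at E15.5. At E16.5 they passed 3249 as higher and 1689 as lower. Leaving out 1 array gave 0 to 3 of the 10 genes at E15.5 and 0 at E16.5. Of the further pathway genes, 4 passed at each stage; the E15.5 count was 1 with the offset allowance and 3 to 4 with 1 array left out, and the E16.5 count was 2 with the 75th percentile as centre, 2 with the offset allowance, 17 with array weights and 2 to 5 with 1 array left out. Array weights gave 2 of them over the day in WT glands, against 0. Quantile normalization and the 75th percentile as centre each lost Slc2a4 at E15.5, and Pik3cb and Stc1 at E16.5. With the offset allowance only Pappa passed at E15.5, and only Pappa and Igf2bp3 at E16.5.

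Over all genes, 800, 1439, 123 and 13 passed (KO against WT at E15.5 and at E16.5, the day in KO, the day in WT). With no filter the first 2 counts were 1688 and 2355, with the offset allowance 349 and 555, and with array weights the 4 were 1350, 4938, 435 and 1103, with 6 for the difference between stages. The filter at the 60th percentile gave 414 at E15.5 and 899 at E16.5. The fits on 8 arrays gave 817 at E16.5, 73 for the day in KO and 0 for the day in WT. The mean of probe sets gave 7 for the day in WT. Leaving out 1 array gave 588 to 1059, 935 to 1705, 53 to 175 and 0 to 19. Among passing genes, 503 were higher and 297 lower in KO glands at E15.5 and 954 and 485 at E16.5; the split was 373 and 350, and 606 and 570, with quantile normalization, and 276 and 372, and 447 and 609, with the 75th percentile as centre.

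With the replicate block, 0 of the 10 genes passed at either stage, 4 and 6 further pathway genes passed, and the counts over the day were 49 in KO and 0 in WT glands. The block joined arrays of the same number, which the labels do not say share a litter. Over the day it joined arrays of different stages, and so of different litters. It therefore could not test a pairing by litter. Without WT E16.5 replicates 1 and 2 together, chosen after seeing the data, 0 of the 10 and 3 further pathway genes passed at E16.5, Igf2r turned to -0.26, and 4 genes passed for the day in WT.

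Signs that turned were of differences that did not pass: with the 75th percentile as centre at E15.5, Igf2r -0.0048, Igfbp4 -0.019 and Igf2 -0.0096; with the mean of probe sets, Insr 0.019 at E15.5 and 0.025 at E16.5; with array weights, Insr 0.015 and 0.079. With 1 array left out, the E15.5 ranges were -0.16 to 0.046 for Igf1, -0.0049 to 0.16 for Igf2r, -0.087 to 0.084 for Insr, -0.16 to 0.037 for Igfbp3, -0.13 to 0.21 for Igfbp4, -0.010 to 0.37 for Igfbp5 and -0.085 to 0.20 for Igf2, and the E16.5 ranges -0.021 to 0.36 for Igf2r and -0.23 to 0.042 for Insr. Without a turn of sign, the E16.5 ranges were 0.079 to 0.22 for Igf1, 0.21 to 0.36 for Igf1r, -0.31 to -0.13 for Irs1, 0.15 to 0.25 for Irs2, 0.32 to 0.68 for Igfbp2, 0.078 to 0.36 for Igfbp3, 0.098 to 0.23 for Igfbp4 and 0.28 to 0.42 for Igfbp5. Where a count or sign moved, the cause was not tested.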

Other observations

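Igfbp1, a binding protein abundant in fetal liver, spanned 3.91 to 7.57 over the 16 arrays without a group pattern. The mean of 4 liver markers (Alb, Afp, Apoa1 and Ttr) spanned 6.73 to 11.86 on the same arrays. After taking out group means, the Pearson correlation of Igfbp1 with that mean was 0.94 over the 16 arrays (Spearman's rho 0.90). For the 10 insulin and IGF genes the same correlation ran from -0.46 for Igf2r to 0.25 for Igfbp3. These are descriptions over points that share an array and a pool of glands.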
